A study of Mus musculus with 92 samples.

Results

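Single cells of the CD11b+ GMP-P gate that the authors' deposited annotation names Gran-2 were set against those it names Gran-1. The choice used the gate in the cell names and the state name in the annotation, and gave 20 Gran-2 and 4 Gran-1 cells, 24 of the 47 cells of that gate and of 92 cells in the series. Every cell, in both states, came from bone marrow of C57BL/6 mice with the genotype Gfi1-R412X/R412X, a homozygous premature stop in the gene for GFI1, so what the mutation does cannot be read from this comparison. The hindlimb marrow was enriched on beads for CD117, the product of Kit, stained and sorted, and single cells were captured and lysed by a Fluidigm C1, a microfluidic system that processes each cell in its own chamber, with cDNA from a SMARTer kit and Nextera XT libraries. The labels do not state the ages of the mice, whether several were pooled, or the antibodies that define the gate, and GMP-P is used as they give it.

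The labels name no animals, so each state counts as 1 sample. No p-value was computed, and ± is the SD over cells, which measures no error between animals. No source used here states how the state names were made. If they were made from the same expression values, the differences describe what the names stand for and are no test of them.

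Neutrophil granulocytes arise in bone marrow from granulocyte-monocyte progenitors (GMP), and fill their granules in a known order. Primary granule proteins such as myeloperoxidase and neutrophil elastase are made in the earliest committed cells, secondary and late granule proteins such as the cathelicidin Camp and lactoferrin (Ltf) later, and CD34 and KIT are lost along the way. Neutrophil development needs GFI1, a zinc finger protein that represses transcription, and the C/EBP factors and PU.1 (Spi1) activate many granule genes.

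The promoters of 4 genes that the 2 states carried at different levels or that mark them (Camp, S100a9, S100a8, Chil3) and of 2 primary granule genes that both carried at high level (Mpo, Elane) are shown because they are the regulatory sequences in front of the genes the comparison turns on. Each is the 150 bases before the transcript start, 5′ to 3′ on the gene's strand, from RefSeq's GRCm38.p6, a build other than that of the expression values. Capitals mark matches, on either strand, to TTNNGNAA (a C/EBP motif), GAGGAAGT (PU.1) and AAATCA (GFI1).
Camp chr9:109849457-109849606 (minus strand): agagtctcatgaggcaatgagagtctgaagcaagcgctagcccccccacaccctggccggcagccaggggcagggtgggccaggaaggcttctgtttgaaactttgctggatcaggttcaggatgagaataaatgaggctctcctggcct
S100a9 chr3:90695722-90695871 (minus strand): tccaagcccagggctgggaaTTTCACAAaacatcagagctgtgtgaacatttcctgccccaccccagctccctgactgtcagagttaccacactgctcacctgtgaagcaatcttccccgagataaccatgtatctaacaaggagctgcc
S100a8 chr3:90668921-90669070 (plus strand): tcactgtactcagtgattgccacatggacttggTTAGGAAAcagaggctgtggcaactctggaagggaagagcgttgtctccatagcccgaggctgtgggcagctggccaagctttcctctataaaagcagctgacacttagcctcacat
Chil3 chr3:106167565-106167714 (minus strand): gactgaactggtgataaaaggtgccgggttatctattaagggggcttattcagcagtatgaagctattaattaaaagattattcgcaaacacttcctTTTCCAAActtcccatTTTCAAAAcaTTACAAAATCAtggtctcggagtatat
Mpo chr11:87793634-87793783 (plus strand): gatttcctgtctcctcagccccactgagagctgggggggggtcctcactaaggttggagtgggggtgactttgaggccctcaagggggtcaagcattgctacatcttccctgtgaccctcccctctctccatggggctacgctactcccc
Elane chr10:79886162-79886311 (plus strand): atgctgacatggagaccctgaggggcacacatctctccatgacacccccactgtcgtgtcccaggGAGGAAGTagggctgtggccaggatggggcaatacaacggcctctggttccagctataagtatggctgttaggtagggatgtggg
S100a9 and S100a8 each held 1 match to the C/EBP motif and Chil3 held 3, the last of them overlapping the single GFI1 match. The PU.1 match was in Elane, and Camp and Mpo held no match in this window. Of 32851 promoters of the same length, 22.7% held the C/EBP motif, 7.04% the GFI1 motif and 1.63% the PU.1 motif. A match is a run of letters and not a measured site.

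The values are TPM, a measure per transcript length within a fixed total for each cell, which keep no read depth, so the number of genes above 0 stands in for it. Gran-2 cells had 2629 to 5743 genes above 0 with a median of 4595, and Gran-1 cells had 4499, 5255, 5272 and 5477 in cells 79, 82, 85 and 95. The ranges overlapped, with 7 Gran-2 cells below the lowest Gran-1 cell and 3 above the highest. A gene was assessed where its share of cells above 0, averaged over the 2 states, was at least 50%, which 4558 of 23956 genes met.

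Gran-2 cells differed from Gran-1 mostly by carrying less: 527 of the 4558 assessed genes (11.6%) were at least 2-fold higher in Gran-2 and 1589 (34.9%) at least 2-fold lower, by the difference of mean log2(TPM + 1), and 31 and 203 were at least 8-fold higher and lower. The median difference of all assessed genes was -0.48, against which the list medians below can be read. Of 23 lists with a median, 7 kept its sign under every alternative setting of scale, filter and cells (late granule, primary granule, ribosome biogenesis, endoplasmic reticulum chaperone, NADPH oxidase, DNA replication and C/EBP-linked genes), and 16 turned sign under at least 1, so their medians give no direction. Relative to the median of all assessed genes, primary granule ran from -0.46 to 0.24 and DNA replication from -1.35 to 0.28. C/EBP-linked genes ran from -0.60 to 0.49, so against all genes these lists give no direction either. The excess of lower genes depended on the scale and on the detection minimum, which lets in more genes through Gran-1. Among the genes past 2-fold 24.9% were higher, against 40.5% after centring each cell on widely detected genes. The share was 39.5% with Gran-2 cells matched to Gran-1 on genes detected and 50.6% from the log2 of the mean TPM. It was 30.9% with no detection filter and 20.2% with detection of at least 75%. The SD over cells was large beside the 2-fold size rule, with a median over genes of 2.57 in Gran-2 and 2.25 in Gran-1, and the count of 2-fold genes is a description of 24 cells. No assessed gene (0%) had every Gran-2 cell above every Gran-1 cell, and 1 (0.0219%) had every Gran-2 cell below, which is Ncor1.

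**Figure D1:**
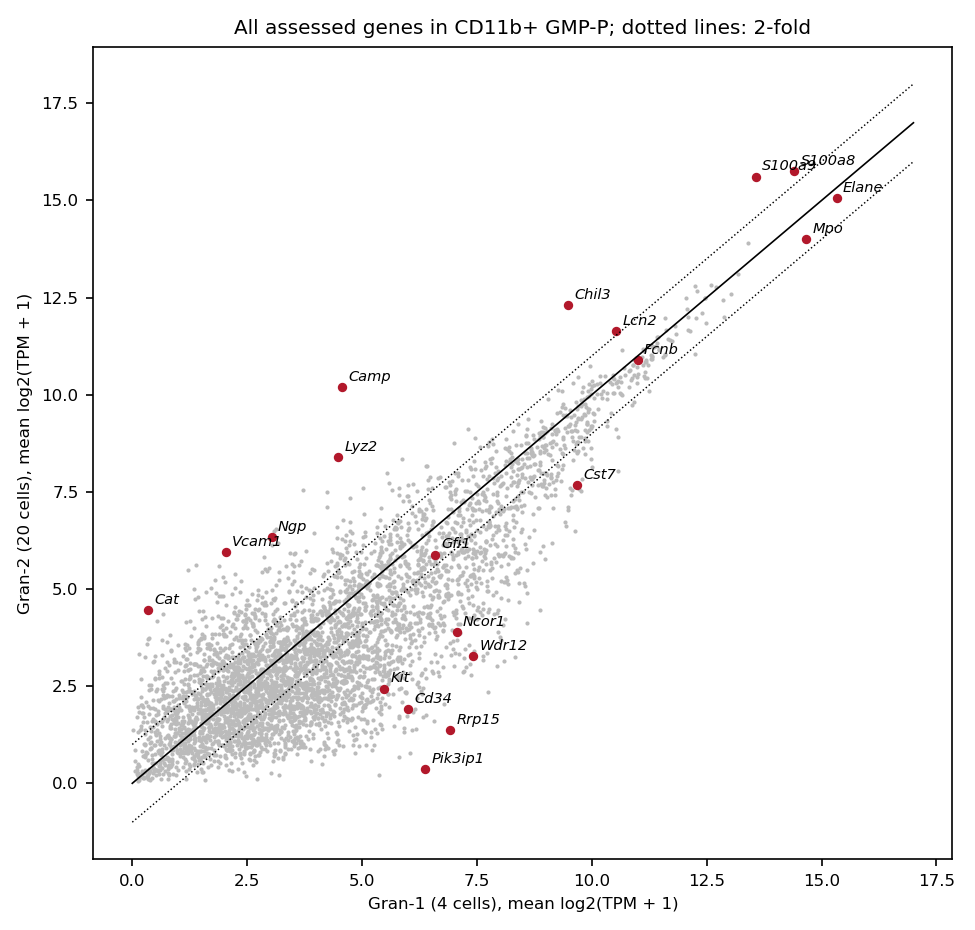
Each point is 1 of the 4558 assessed genes, with its mean log2(TPM + 1) over the 4 Gran-1 cells on the x axis and over the 20 Gran-2 cells on the y axis, and 20 genes are named. The solid line is equality and the dotted lines stand at 2-fold, with more genes below the lower line (1589) than above the upper one (527).

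Among the 682 genes above 0 in all 24 cells, 38 were at least 2-fold higher and 138 at least 2-fold lower in Gran-2. Both are smaller shares than the 11.6% and 34.9% of all assessed genes, and their median difference was -0.29. No value of these genes is 0, but values down to 0.01 TPM count as above 0. Ncor1, a nuclear receptor corepressor, was singled out after its values were seen. Its TPM was 145, 90.7, 103 and 226 in Gran-1 cells 79, 82, 85 and 95, and 1.39 to 77.5 with a median of 16.4 in Gran-2. On the log2 scale that is 3.89 ± 1.38 (SD, n = 20) against 7.06 ± 0.58 (SD, n = 4), a difference of -3.17, and -3.35 to -2.92 when 1 Gran-1 cell was left out. With 1 Gran-1 cell left out, the count of genes with every Gran-2 cell below was 7 without cell 79, 5 without 82, 10 without 85 and 3 without 95.

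The 3 markers given for the granulocyte states were present in all 24 cells, and S100a8 and S100a9, which encode the calprotectin subunits that neutrophils hold in their cytosol, were higher in Gran-2. S100a9 had 3641, 28669, 19177 and 11127 TPM in Gran-1 cells 79, 82, 85 and 95 and 10390.3 to 128118 with a median of 65646 in Gran-2. The groups overlapped, but 16 of 20 Gran-2 cells lay above the highest Gran-1 cell, and the log2 means were 15.61 ± 0.93 (SD, n = 20) and 13.58 ± 1.29 (SD, n = 4), a difference of 2.04. S100a8 had 10357, 32238, 32436 and 20681 TPM in the Gran-1 cells and 12898 to 106514 with a median of 71171 in Gran-2, with 17 of 20 above the highest Gran-1 cell. Its log2 difference was 1.34, and 0.98 without Gran-1 cell 79, the lowest of the 4. Fcnb, a secreted lectin of early neutrophil granules, did not separate the states: 2005, 3350.2, 2269.6 and 1145 TPM in Gran-1, 66.3 to 7949 with a median of 2613 in Gran-2, and log2 means of 10.998 ± 0.64 and 10.90 ± 1.77. In the S100 and annexin list, 11 of 16 members were assessed, the 2 calprotectin genes were at least 2-fold higher, 3 were at least 2-fold lower (S100a10 -3.22, Anxa7 -2.37 and Anxa2 -2.30), and the median was -0.20 (-0.34 to 0.55 under the alternatives). Of all assessed genes, 11.6% were at least 2-fold higher and 34.9% lower. Anxa2 differed by -0.88 with Gran-2 cells matched on genes detected.

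Secondary and late granule genes were higher in Gran-2 as a list, and the cells named Gran-2 ranged widely in them. Of 20 members 12 were assessed, 5 at least 2-fold higher and none lower, beside 11.6% and 34.9% of all assessed genes, and the other 8 members were below the detection minimum. The median difference was 0.68, or 1.15 above the median of all genes, and it lay between 0.48 and 1.32 under the alternative settings. Camp, the antimicrobial cathelicidin, had the highest difference of all named genes: 14.8, 586, 8.97 and 2.44 TPM in Gran-1 cells 79, 82, 85 and 95 against 1.91 to 34669.6 with a median of 2356 in Gran-2. The highest Gran-1 cell, 82, lay above 6 of the Gran-2 cells, and the other 3 Gran-1 cells lay below most of them. The log2 means were 10.20 ± 3.82 (SD, n = 20) and 4.57 ± 3.22 (SD, n = 4), a difference of 5.63 that ranged from 4.70 to 7.17 without 1 Gran-1 cell. Ngp, neutrophilic granule protein, had 20.6, 1.28, 16.1 and 4.38 TPM in Gran-1 and 0.59 to 4092 with a median of 84.2 in Gran-2, a difference of 3.30, with 13 of 20 Gran-2 cells above every Gran-1 cell.

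Chil3, a chitinase-like lectin of neutrophils and macrophages, split the Gran-1 cells, with 218, 10873, 31.3 and 3372 TPM in cells 79, 82, 85 and 95 against 1.92 to 18805 with a median of 7996 in Gran-2. Only 6 Gran-2 cells lay above the highest Gran-1 cell, and the difference of 2.82 was 1.33 without cell 85. Lcn2, a siderophore-binding protein, was abundant in both, with 2477, 1386, 1729 and 791 TPM in Gran-1 and 771 to 7942 with a median of 3788 in Gran-2. Its difference of 1.12 was 0.82 without cell 95. Cd177, a neutrophil surface protein, was at 0 in 8 of 20 Gran-2 cells and reached 1461 TPM in the highest. It thus had a mean difference of 2.05 but a difference of medians of -0.20.

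Other secondary granule genes were low in both states or lay within 2-fold. Ltf, lactoferrin, had 2.35, 0, 2.36 and 0 TPM in the Gran-1 cells and 0 to 141 with a median of 0.315 in Gran-2, and Mmp8, a collagenase of secondary granules, 0.88, 0, 27.5 and 0 and 0 to 1239.7 with a median of 0.115. The differences were -0.11 and 0.38. Hp (haptoglobin, -0.15), Pglyrp1 (-0.20), Lrg1 (-0.46), Anxa1 (0.57) and 1100001G20Rik (now Wfdc21, 0.78) also lay within 2-fold. Orm1 and Arg2 were at 0 in all 24 cells. Ly6g was added to the table outside the TPM total and is not on the scale of the other genes.

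As a share of all TPM in a cell, late granule genes with S100a8 and S100a9 made 3.41% in Gran-1 cell 79, 8.32% in 82, 6.34% in 85 and 4.49% in 95. In Gran-2 they made 3.37% to 31.2% with a median of 17.04%, and 17 of 20 Gran-2 cells lay above the highest Gran-1 cell. Of the remaining 3, which are cells 57, 86 and 89, 2 lay inside the Gran-1 range and 1 below it. Most of this share in Gran-2 came from S100a8 and S100a9, 2 of the markers given for the states. The S100 and annexin list summed to a median of 146429 TPM there, and the late granule list to 32348.7. Alone, the late granule list summed to 10439.7 to 77145 TPM in Gran-2 and 11736.8 to 22301.8 in Gran-1, with overlap. In shares of a fixed total, a larger part for 1 group of genes and a smaller part for the rest cannot be told apart.

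**Figure D2:**
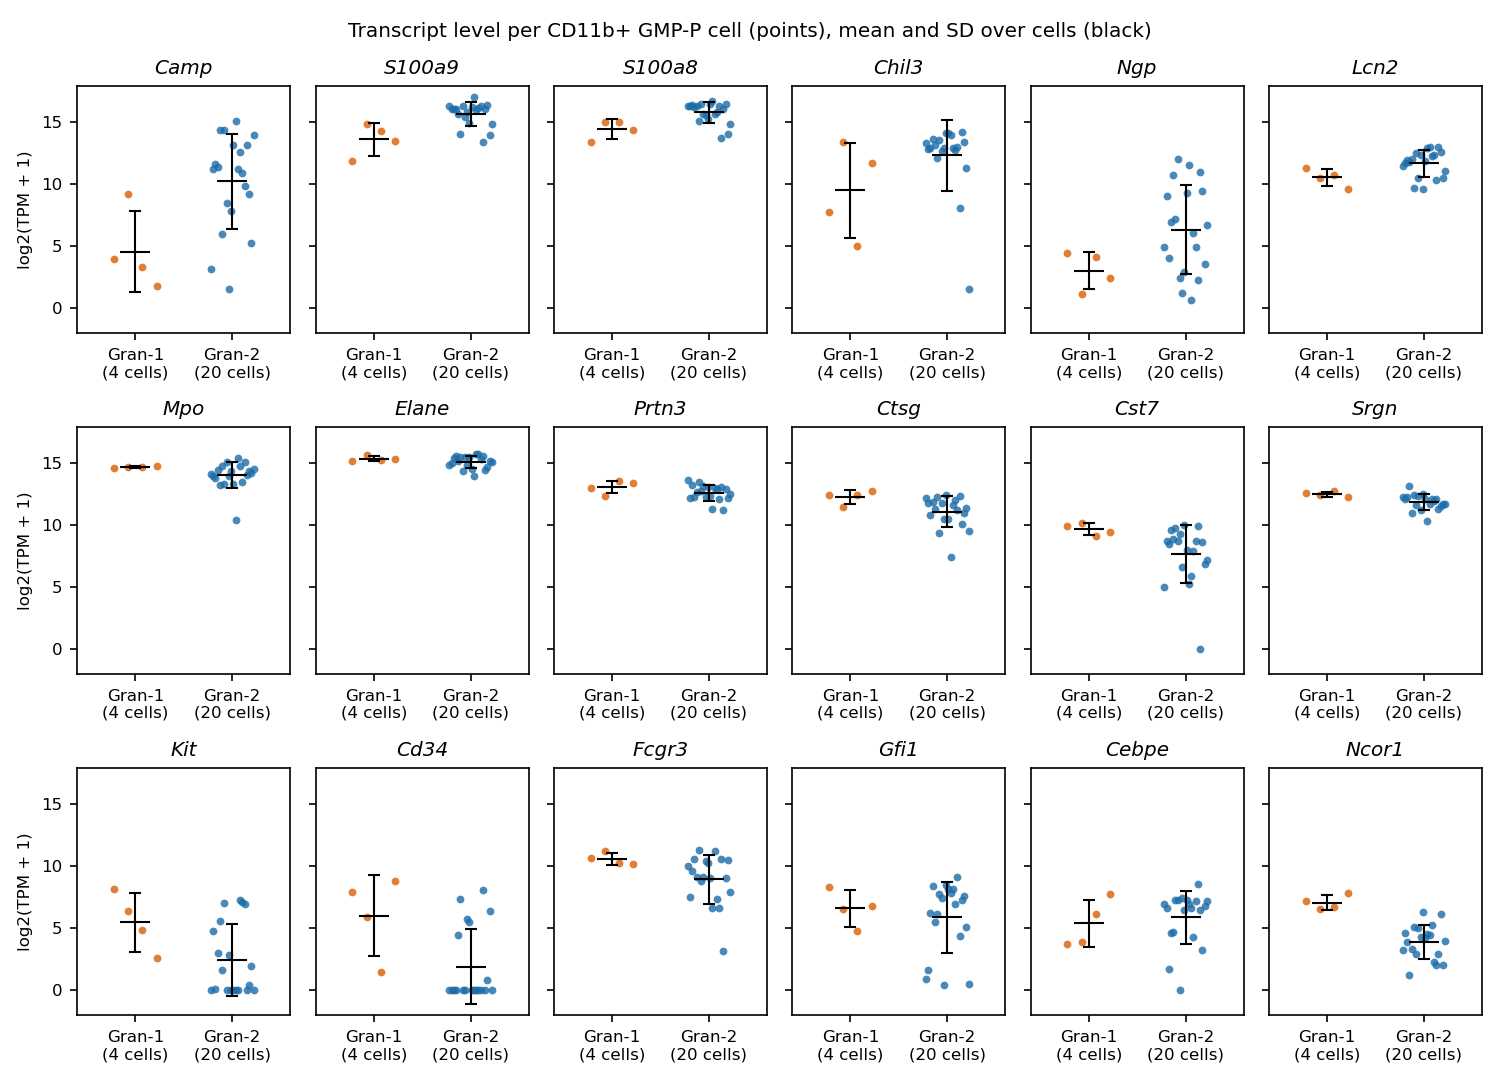
Each dot is 1 cell, with log2(TPM + 1) on the y axis, in 18 genes of the comparison, with Gran-1 (n = 4 cells) beside Gran-2 (n = 20 cells). Black marks are the mean and SD over cells. Camp and Ngp stand higher in most Gran-2 cells, Mpo and Elane are high in both states, and Kit and Cd34 are at 0 in many Gran-2 cells.

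The primary granule genes stayed abundant in Gran-2 and most were slightly lower than in Gran-1. Of 20 members 18 were assessed, 3 at least 2-fold higher and 2 lower, beside 11.6% and 34.9% of all assessed genes, and 13 within. Of the 18 differences 15 were below 0, with a median of -0.53, close to the median of all genes. Mpo, myeloperoxidase, was nearly the same in the 4 Gran-1 cells, at 25002, 25366, 26055 and 27353 TPM, and varied in Gran-2 from 1382 to 42598 with a median of 18059.9. Of the 20 Gran-2 cells, 15 lay below the lowest Gran-1 cell and 4 above the highest, and the log2 means were 14.002 ± 1.04 and 14.66 ± 0.06. Elane, neutrophil elastase, had 36239.6, 49649.9, 38581 and 41404 TPM in Gran-1 and 15870.5 to 54245 with a median of 36043 in Gran-2, a difference of -0.26. The serine protease Prtn3 differed by -0.45 and the proteoglycan core protein Srgn by -0.63.

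Ctsg, cathepsin G, and Cst7, cystatin F, an inhibitor of cathepsins, were the primary granule genes at least 2-fold lower in Gran-2. Ctsg had 5316, 2851, 5536 and 6714 TPM in Gran-1 and 168 to 5379 with a median of 2583 in Gran-2, a difference of -1.19. That of Ctsg was under 2-fold after centring (-0.83), with matched cells (-0.91) and by the log2 of the mean TPM (-0.90). Cst7 had 981, 1171, 550.1 and 695 TPM in Gran-1 and 0 to 1044 with a median of 374 in Gran-2, a difference of -2.003, with 15 of 20 Gran-2 cells below every Gran-1 cell. Among the 3 higher members were the lysozymes Lyz2 and Lyz1. Lysozyme is held in more than 1 kind of neutrophil granule and in monocytes. Lyz2 had 7.41, 305, 97.1 and 0 TPM in Gran-1 cells 79, 82, 85 and 95 and 2.96 to 6776 with a median of 792 in Gran-2, a difference of 3.90, and 2.41 without cell 95, where it was at 0. Lyz1 differed by 3.15, and because the 2 genes are near-identical copies, reads could be split between them by the counting. Summed over the list, primary granule genes took 11.3% to 11.8% of TPM in the Gran-1 cells and 4.32% to 13.4% in Gran-2 with a median of 8.79%, and 15 of 20 Gran-2 cells lay below the lowest Gran-1 cell.

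Transcription factors of the granulocyte lineage mostly lay within 2-fold. Of 18 members 11 were assessed, 2 at least 2-fold higher and 2 lower, beside 11.6% and 34.9% of all assessed genes. Their median was -0.62 (-1.09 to 0.07 under the alternatives, above 0 without Gran-1 cell 95). Gfi1 itself, whose transcript carries the stop in every cell, was above 0 in all 24 cells. It had 317, 89.8, 26.1 and 108 TPM in Gran-1 and 0.35 to 545 with a median of 135 in Gran-2, and log2 means of 6.59 ± 1.45 (SD, n = 4) and 5.89 ± 2.84 (SD, n = 20). The difference of -0.70 lay inside 1 SD of either state. Cebpe, a C/EBP factor of late neutrophil development, had 12.4, 14.2, 71.1 and 211 TPM in Gran-1 and 0 to 371 with a median of 104 in Gran-2, a difference of 0.49. Spi1, which encodes PU.1, differed by 0.14 and Myb, a factor of cycling progenitors, by -0.91. Cebpb, a C/EBP factor, was at 0, 0, 0.99 and 0.41 TPM in Gran-1 and at 0 to 21.04 with a median of 2.5 in Gran-2, a difference of 1.41 at a low level, and 0.41 with a pseudocount of 10. Ets1 differed by 1.07, but by -0.23 without Gran-1 cell 79 and -0.11 without cell 85. Hoxa9, a progenitor homeobox factor, differed by -1.61 and by 0.16 without cell 79, where it reached 201 TPM. Per3, a circadian repressor, differed by -1.92. Irf8, a factor of the monocyte lineage, was at 0 in all 4 Gran-1 cells and above 0 in 3 of 20 Gran-2 cells, with a highest value of 292 TPM. In a list of genes reported as GFI1 targets, 7 of 20 members were assessed, Cebpb and Ets1 were at least 2-fold higher, Hoxa9 was lower, and the median was 0.30. That median was below 0 whichever Gran-1 cell was left out, at -0.23 without cell 79, -0.15 without 82, -0.04 without 85 and -0.24 without 95, so the list gives no direction.

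Among genes for surface proteins by which such progenitors are commonly sorted, 3 that progenitors carry were lower in Gran-2. Of 13 genes of this list 9 were assessed, none at least 2-fold higher and 3 at least 2-fold lower (Cd34, Kit and the Fc receptor gene Fcgr3). The lower count is near the 34.9% of all assessed genes, and the median was -0.04 (-1.35 to 0.39 under the alternatives). Cd34, a sialomucin of progenitors, had 241, 58.1, 1.76 and 437 TPM in Gran-1 cells 79, 82, 85 and 95 and was above 0 in 7 of 20 Gran-2 cells, with a highest value of 264. The difference was -4.09, and 14 of 20 Gran-2 cells lay below every Gran-1 cell. Kit, the receptor for stem cell factor by which the marrow was enriched, had 286, 81.8, 27.3 and 4.99 TPM in Gran-1 and 0 to 152 with a median of 1.2 in Gran-2, where it was above 0 in 12 of 20 cells. Its difference was -3.05, and that of Fcgr3 -1.64, or -0.89 by the log2 of the mean TPM. Itgam, which encodes CD11b, did not separate the states within this gate: 0.15, 0, 18.96 and 82.5 TPM in Gran-1 and 0 to 319 with a median of 3.18 in Gran-2, a difference of 0.34, and from -0.57 to 1.56 without 1 Gran-1 cell. A transcript at 0 in a single cell is no measure of the protein by which the cell was sorted.

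Genes that build ribosomes were lower in Gran-2 as a list. Of 22 members 16 were assessed, none at least 2-fold higher and 13 at least 2-fold lower, beside 11.6% and 34.9% of all assessed genes. The other 6 members were below the detection minimum, and their differences lay on both sides of 0. The median of the assessed members was -1.60, or -1.12 relative to all genes. It lay between -2.45 and -0.88 under the alternative settings, with 6 to 15 members lower and 0 or 1 higher. Wdr12, a factor of the large subunit's assembly, had 292, 129.5, 109 and 205 TPM in Gran-1 and 0 to 231 with a median of 4.5 in Gran-2. All 4 Gran-1 cells lay above 15 of 20 Gran-2 cells, and the difference was -4.14. Gnl3, nucleostemin, was uneven in Gran-1, at 1073, 0.37, 3.54 and 473 TPM in cells 79, 82, 85 and 95, and 0 to 266 with a median of 0.945 in Gran-2. Its difference of -3.87 was -2.31 without cell 79. Rrp9 (-2.54, and -0.97 with a pseudocount of 10), the RNA polymerase I subunit Polr1b (-2.51) and the endonuclease Apex1 (-2.48) were lower as well, and Nhp2 was the 1 assessed member above 0 (0.28). By the mean over the list in each cell, 11 of 20 Gran-2 cells lay below the lowest Gran-1 cell and none above the highest.

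The ribosomal protein genes themselves all lay within 2-fold, 50 of 50, with a median of -0.26. Of all assessed genes 11.6% were at least 2-fold higher and 34.9% lower. Of the 682 genes above 0 in all 24 cells, 38 were higher and 138 lower. The share of TPM in ribosomal protein genes was 8.36% to 9.95% in Gran-1. In Gran-2 it was 6.04% to 10.04% with a median of 7.95%. The list of endoplasmic reticulum chaperones, which fold secretory proteins, had 19 of 21 members assessed, 1 at least 2-fold higher and 11 lower, beside 11.6% and 34.9% of all assessed genes, with a median of -1.05. The lower count was 6 after centring, with matched cells, by medians and by the log2 of the mean TPM. It was 5 with even-numbered Gran-2 cells. Of the 4558 assessed genes 1172, 1303, 1839, 964 and 1573 were lower under these settings in turn. The list's share thus lay above that of all genes under some of them and below it under others. Its lower count was 7 without Gran-1 cell 85 or cell 95, and its median stayed between -1.33 and -0.56. Xbp1, a transcription factor of the secretory machinery, differed by -2.66 and by -0.96 with Gran-2 cells matched on genes detected. The disulfide isomerase Pdia6 differed by -2.25 and the chaperone Hspa5 by -1.42, or by -0.85 and -0.91 with even-numbered Gran-2 cells. Creld2 differed by -1.70 and by -0.48 without Gran-1 cell 95. The higher member, the oxidoreductase Ero1l, differed by 1.47, and by 0.86 without cell 82 and 0.83 without cell 95.

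**Figure D3:**
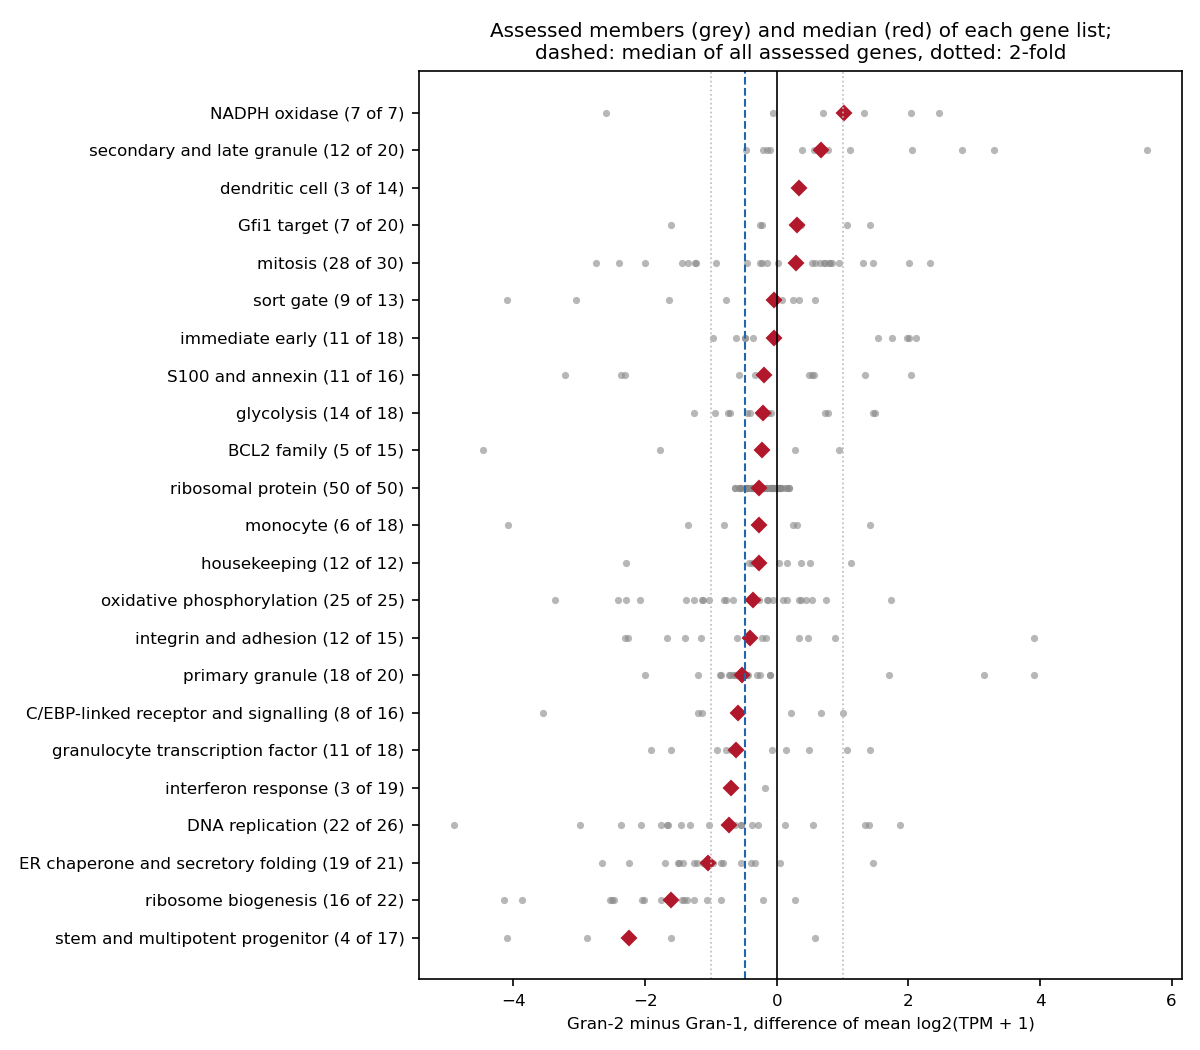
Each line is 1 gene list with at least 3 assessed members, with a grey point for each assessed member at its difference (Gran-2 minus Gran-1, log2 scale, x axis) and a red diamond at the list's median. The dotted lines stand at 2-fold and the dashed line is the median of all assessed genes, -0.48. Late granule and NADPH oxidase medians lie to its right (0.68 and 1.02), and ribosome biogenesis to its left (-1.60).

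The subunits of the phagocyte NADPH oxidase, which makes superoxide in neutrophils, were mostly higher in Gran-2, and several of these differences rested on single Gran-1 cells. All 7 members were assessed, 4 at least 2-fold higher and 1 lower, beside 11.6% and 34.9% of all assessed genes, with a median of 1.02. The median was 0.46 without Gran-1 cell 85 and 0.75 without cell 79, and by the log2 of the mean TPM it was 0.47 with 1 member higher. Ncf1, the p47phox organiser, had 13.99, 1.01, 39.3 and 20.7 TPM in Gran-1 and 0 to 774 with a median of 95.03 in Gran-2, a difference of 2.04, and 1.16 without cell 82. The p40phox gene Ncf4 differed by 2.47 and by 0.80 without cell 95. Cybb, the catalytic subunit, differed by 1.33 and by -0.28 without cell 85. Cyba (0.70) and the GTPase Rac2 (-0.05) lay within 2-fold. The lower member was Rac1, the more widely expressed GTPase, with 990.1, 142, 124 and 45.1 TPM in Gran-1, 0 to 503 with a median of 41.5 in Gran-2 and a difference of -2.59.

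Cell cycle genes gave no single direction. Of the DNA replication list 22 of 26 members were assessed, 3 at least 2-fold higher and 10 lower, beside 11.6% and 34.9% of all assessed genes, with a median of -0.72. The lower count ran from 3 by the log2 of the mean TPM and 5 without Gran-1 cell 79 to 16 without cell 82, and the median from -0.23 with odd-numbered Gran-2 cells to -1.81 without cell 82. The flap endonuclease Fen1 (-4.91), the GINS subunit Gins2 (-2.98) and the helicase subunit Mcm4 (-2.36, but -0.31 by the log2 of the mean TPM) were lower. Another helicase subunit, Mcm2, was higher (1.88), as were the licensing factor Cdt1 (1.35, 0.56 without Gran-1 cell 85 and 0.77 without 95) and thymidylate synthase, Tyms (1.40, 0.45 without cell 79). Of the mitosis list 28 of 30 members were assessed, 4 at least 2-fold higher and 7 lower, beside the same shares, with a median of 0.30. That median was -0.73 with detection of at least 75% and -0.55 without Gran-1 cell 79 (3 higher, 11 lower), but 1.21 without cell 82 (15 higher, 4 lower) and 1.16 with matched cells (16 higher, 2 lower). Of all assessed genes 538 were higher and 1827 lower without cell 79, 703 and 1661 without cell 82, and 851 and 1303 with matched cells. The spindle genes Hmmr (-2.75) and Tpx2 (2.33) lay apart in opposite directions, and Ccna2, cyclin A2, differed by -2.39. Tpx2, Prc1 (2.01), Bub1b (1.46, 0.85 by medians) and Cenpa (1.32) were the higher members, and Cenpa differed by 0.21 without cell 79 and by 0.21 without 95. The proliferation marker Mki67 (0.02) and the topoisomerase Top2a (-0.23) were close to 0.

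Among immediate early genes, which respond within minutes to stress and to handling of tissue, 11 of 18 members were assessed, 5 at least 2-fold higher and none lower in Gran-2, beside 11.6% and 34.9% of all assessed genes, and the median of the 11 was -0.05. That median was 0.73, 0.45, 1.08 and 0.39 without Gran-1 cell 79, 82, 85 or 95, and 2, 4, 0 and 2 members were then lower. The 5 were Zfp36 (2.12), Fosb (2.004), Btg2 (1.97), Klf6 (1.74) and Jun (1.54, 0.57 without Gran-1 cell 82). Fos (-0.49) and Junb (-0.62) lay below 0. Of the integrin and adhesion list 12 of 15 were assessed, 1 at least 2-fold higher and 5 lower, near the 34.9% of all assessed genes, with a median of -0.41. With matched cells 3 were higher and 2 lower with a median of 0.52, and without Gran-1 cell 95 the median was 0.09. The higher one, Vcam1, an adhesion receptor, had 108, 1.59, 0 and 0 TPM in Gran-1 and 0 to 1451 with a median of 164 in Gran-2, a difference of 3.91. Itgb2, the partner of CD11b, differed by -2.27, and Cd24a by -2.30. Cd44 differed by -1.66, but by -0.30 by the log2 of the mean TPM and -0.74 with even-numbered Gran-2 cells. Itgal differed by -1.40 (-0.34 without cell 95). Of 16 C/EBP-linked receptor and signalling genes 8 were assessed, 1 at least 2-fold higher (the chemokine receptor Cxcr4, 1.002, and 0.12 without cell 79) and 3 lower. That is near the 11.6% and 34.9% of all assessed genes, and the median was -0.59. The 3 lower were Tlr4 (-3.54), Cxcr2 (-1.19, -0.99 without cell 79 and -0.82 without 95) and Clec12a (-1.14, and under 2-fold in 6 alternatives, such as -0.71 by medians).

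Of genes not on these lists, the highest differences after Camp were Mrpl4, a mitochondrial ribosomal protein (4.27), the signalling adaptor Sla (4.23) and catalase, Cat (4.11). They were followed among the 12 highest by Ech1 (3.81), Atp6v1c1 (3.70), Brd9 (3.68), Rcsd1 (3.67), Toporsos (3.63) and Slc50a1 (3.44), beside Vcam1 and Lyz2. Toporsos is an antisense transcript, and without strand its reads and those of its partner cannot be told apart. The lowest was Pik3ip1, an inhibitor of PI3 kinase, with 13.2, 229, 63.1 and 225 TPM in Gran-1 and values above 0 in 3 of 20 Gran-2 cells, of which the highest was 19.9. Its difference was -6.01, and 19 of 20 Gran-2 cells lay below every Gran-1 cell. The rest of the 12 lowest were Rrp15 (-5.54), Fam216a (-5.41), Casp2 (-5.28), Entpd4 (-5.16), Hist2h2bb (-5.12), Slc35c2 (-5.07), Alg5 (-4.96), Umps (-4.95), Fen1, Nrbp1 (-4.79) and Tmem66 (-4.75). Rrp15 acts in ribosome assembly, and Alg5 and Slc35c2 in glycosylation. These are the ends of a ranking over 4558 genes in 24 cells, and the difference of each was chosen for its size.

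Many markers of other blood lineages were at 0 in both states, and some were not. B cell markers were at 0 in all 24 cells for 10 of 13 genes, T and NK cell markers for 9 of 12, and neither list had an assessed member. Their summed TPM was 0 to 125 and 0 to 69.98 in Gran-2 and 0 to 416 and 0 to 48.9 in Gran-1. Erythroid markers were at 0 in all 24 cells for 12 of 16 genes, among them Gata1 and the globins Hba-a1 and Hbb-b1, with 1 assessed, the transferrin receptor Tfrc (-1.46, 0.09 without Gran-1 cell 79), and sums of 0 to 569 TPM in Gran-2 and 0 to 338 in Gran-1. Megakaryocyte markers were at 0 for 8 of 12 genes, among them Pf4 and Itga2b, with Fli1 (-0.47) and Cd9 (-0.22) assessed and sums of 62.3 to 768 and 211 to 451. Eosinophil markers were at 0 for 6 of 9, Epx among them, with Siglec5 (-2.77) assessed and sums of 0 to 242 and 0.19 to 195. Basophil and mast cell markers were at 0 for 6 of 12, with sums of 87.5 to 1698 and 193 to 1167. The 1 assessed, Hdc (0.21), was above 0 in all 24 cells.

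The monocyte list, of which Ly6c2 and Klf4 stand in other lists as well, had 1 of 18 genes at 0 in all cells (Fcgr1). Of its genes 6 were assessed, 1 at least 2-fold higher and 2 lower, beside 11.6% and 34.9% of all assessed genes. The higher one was Tifab (1.41, and 0.53 without Gran-1 cell 79 or cell 95). The 2 lower were F13a1, coagulation factor XIII A (-4.08), and Ms4a6c (-1.35, 0.08 without cell 79). The median was -0.27 (-0.62 to 0.22 under the alternatives), and the summed TPM was 1612 to 18819.6 in Gran-2 and 3921 to 11219 in Gran-1. Macrophage markers were at 0 for 8 of 13 genes, C1qa among them, with Vcam1 and Slc40a1 (-2.96) assessed and sums of 1.33 to 1779.8 and 115 to 774. Dendritic cell markers were at 0 for 7 of 14 genes, Flt3 and Cd74 among them, with 3 assessed, all within 2-fold, and sums of 0.29 to 704 and 0.26 to 303. The stem and multipotent progenitor list was at 0 for 7 of 17, with sums of 47 to 560.5 and 149.6 to 641. Of its 4 assessed members Cd34, Lmo2 (-2.89) and Hoxa9 were at least 2-fold lower, beside 34.9% of all assessed genes. The median was -2.25, but 0.21 with no detection filter, which also counts members below the detection minimum. The part of any of these genes in the granule results was not tested.

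Within the 20 Gran-2 cells, those with a larger share of late granule and S100 transcripts had a smaller share of primary granule transcripts, with a Spearman rho of -0.62 over cells. The rho was -0.59 for Cd34, -0.07 for Kit, -0.17 for Cebpe and 0.41 for Gfi1. It was -0.48 for the mean of ribosome biogenesis genes, -0.49 for endoplasmic reticulum chaperones, 0.15 for mitosis genes and -0.13 for genes detected. These are descriptions over 20 cells of 1 sample, and shares of a fixed TPM total are tied to each other.

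Beside them, the 15 Myelo-2 cells of the same gate had more late granule and less primary granule transcript. Late granule and S100 transcripts made 41.2% to 63.8% of TPM there with a median of 55.5%, above every Gran-2 cell, and primary granule genes made a median of 2.38%. On the log2 scale Camp was 16.08 ± 0.33 (SD, n = 15), Ngp 16.19 ± 0.91 and Ltf 12.29 ± 2.20, and Mpo 2.86 ± 2.62. Myelo-2 cells had fewer genes above 0, at 1993 to 3257 with a median of 2936, and the part of this in the comparison was not tested.

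The GMP gate, whose cells took no part in the choice of the 24, held 2 Gran-2 and 6 Gran-1 cells. The 2 gates carry different date codes, and gate, capture and animal cannot be told apart, so the values stand side by side. The late granule list had a median above 0 there too, at 2.73 against 0.68. Of the 12 assessed members 11 were above 0 in GMP and 8 in CD11b+ GMP-P, so some members turned sign between the gates. The state names in GMP come from the same annotation. Late granule with S100a8 and S100a9 made 11.8% and 12.3% of TPM in the 2 Gran-2 cells and 0.594% to 2.68% in the 6 Gran-1 cells, with no overlap. S100a9 differed by 6.16, S100a8 by 4.38, Ngp by 5.01, Camp by 2.63, Chil3 by 7.49 and Lyz2 by 6.90 there. Fcnb, near 0 in difference within CD11b+ GMP-P, differed by 6.88 in GMP.

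Over all assessed genes the differences in the 2 gates were nearly unrelated. Of the 527 genes past 2-fold upward in CD11b+ GMP-P, 222 (42.1%) were above 0 in GMP, against 38.1% of all assessed genes, and of the 1589 lower genes 999 (62.9%) were below 0, against 61.5%. Over the 4558 genes, which are not independent of each other, Pearson's r was 0.053 and Spearman's rho 0.041. Of the 12 highest genes 6 were above 0 in GMP, and of the 12 lowest 11 were below. Ribosome biogenesis had 9 of 16 members below 0, a share under the 61.5% of all assessed genes, with a median of -0.75 against -0.49. Endoplasmic reticulum chaperones (0.17 against -1.05), primary granule (0.21 against -0.53) and stem and multipotent progenitor genes (1.22 against -2.25) had medians of the other sign in GMP. NADPH oxidase (0.98), DNA replication (-0.51) and C/EBP-linked genes (-0.03) were among the lists that kept theirs. Mitosis genes, with a median of 0.30 in CD11b+ GMP-P, turning sign with the cells used, had one of -3.05 in GMP. Kit differed by -1.61 and Cd34 by 0.29 in GMP, against -3.05 and -4.09, and Ncor1 by -1.38 against -3.17.

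**Figure D4:**
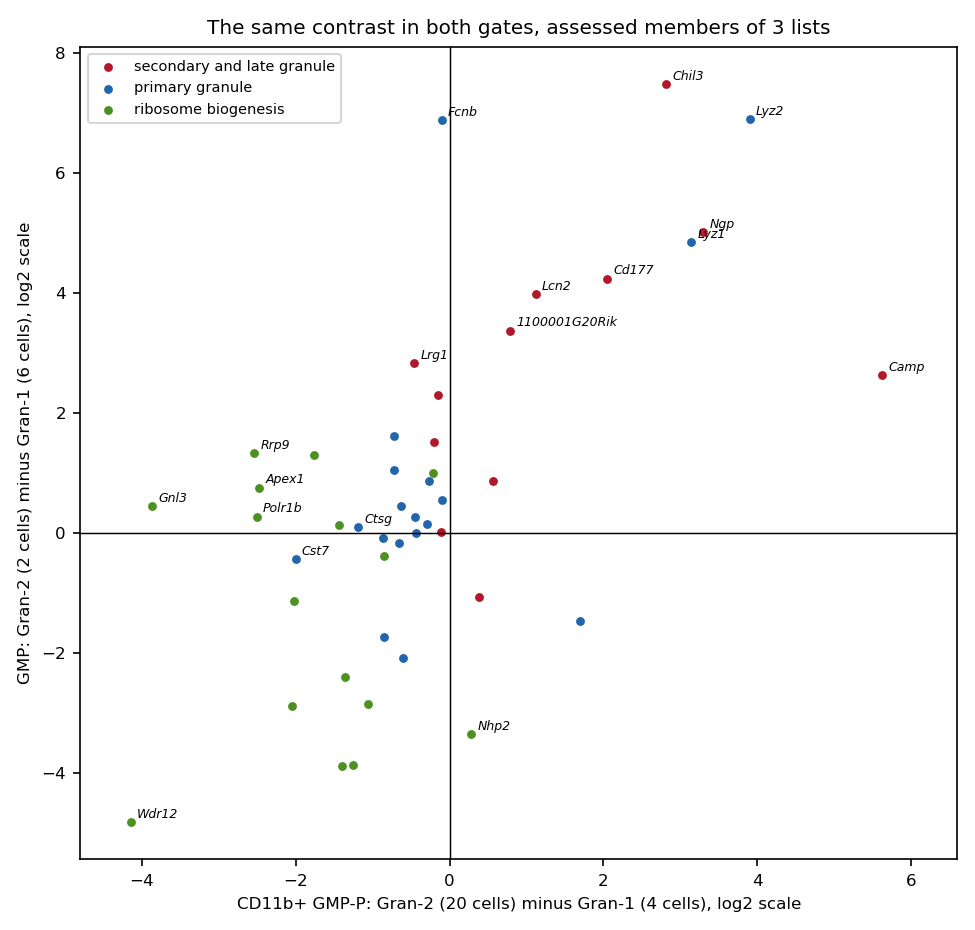
Each point is an assessed member of the late granule, primary granule or ribosome biogenesis list, with its difference (Gran-2 minus Gran-1, log2 scale) in CD11b+ GMP-P on the x axis (20 against 4 cells) and in GMP on the y axis (2 against 6 cells). Late granule genes such as Ngp and Chil3 lie in the upper right, and 15 of 16 ribosome biogenesis genes lie left of 0, with both signs on the y axis.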

How the data were processed

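Expression of 92 single cells, 45 from the GMP gate and 47 from CD11b+ GMP-P, was deposited as log2 values for 23956 gene symbols. The authors used Bowtie2 and RSEM with mm9, per the submitters' processing notes; versions and filters are not known from them. From the values, the deposited log2 numbers are log2(TPM + 1): TPM sums to 1000000 in each cell, apart from Ly6g, which was added outside the total. A second deposited file names 1 of 9 states per cell. No column belonged to other samples (0), and no pair of the 24 cells was identical (0). TPM keeps no depth, so genes above 0 stand in for it, and no interval can be given. All cells were kept, and doublets were not called.

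With python 3.11.15, numpy 2.4.6 and pandas 2.3.3, means and SD of log2(TPM + 1), with its pseudocount of 1, were taken over cells, which understates changes of low genes. A gene counted as apart at a difference of 1 (2-fold). Means were summarised over 30 gene lists, medians only for lists with 3 or more assessed members. The scripts were tested on simulated data. Named genes were the 12 highest and 12 lowest differences among assessed genes detected in 75% of the cells of the higher state, the 3 largest of each list, any member of the granule, transcription factor and sort gate lists, and S100a8, S100a9, Fcnb, Gfi1, Irf8, Cebpe, Itgam, Kit and Cd34. List members outside this rule, and Ncor1, were named after their values were seen. A few genes counted in the lists are not reported here by name. The members of the comparison and the lists were chosen with earlier results of these data known. Alternatives changed the pseudocount, the summary, the scaling, the detection minimum and the cells used. Promoters came from RefSeq's GRCm38.p6 table, which held all 6 genes looked up. No coordinate of the mm9 build is given.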

Additional observations from a re-analysis of the deposited data

Results flagged for a closer look

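In the GMP gate, whose 6 Gran-1 cells stand beside the comparison, 3 values of single cells were set off from the other 5 cells by a gap that made up most or all of the range. Cell 25 had 2775 genes above 0, the fewest of the 6. Cell 40 had Irf8 at 0.29 on the log2(TPM + 1) scale, a level close to 0, where the other 5 cells were at 0. Cell 12 had Itgam at 5.60, where the other 5 were at 0. In the Gran-1 cells of both gates 24 sets of values were taken up, each a quantity in the Gran-1 cells of 1 gate. A set without a range was passed over, such as Irf8 in CD11b+ GMP-P. Chance sets off a cell in about 1 in 20 sets. That rate does not hold for Irf8 and Itgam, where any value above 0 in 1 cell would be set off from 5 cells at 0.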

How the results depend on the processing

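Of 99 genes named here and past 2-fold, 60 were past 2-fold the same way under all 14 alternatives run on single genes. Among the 60 were Camp, Ngp, Chil3, S100a9, Lyz2, Cst7, Kit, Cd34, Wdr12 and Ncor1, and 39 genes were not so. Many of the 99 were named for the size of these same differences, and the alternatives reuse the same cells. The 60 therefore describe these cells and are no test of the genes. Of 23 list medians, 7 kept their sign under every alternative, late granule and ribosome biogenesis among them, and 16 turned under at least 1, all of them but the stem and multipotent progenitor list with a median under 2-fold. Counts of genes at least 2-fold higher and lower were 247 and 822 with a pseudocount of 10, 987 and 964 from the log2 of the mean TPM, 236 and 934 with detection of at least 75%, and 1122 and 2506 with no detection filter. The higher count was 798 after centring, 851 with cells matched on genes detected and 848 with detection of at least 25%. Genes with every Gran-2 cell above and below every Gran-1 cell numbered 5 and 13 with matched cells and 3 and 9 with even-numbered Gran-2 cells. Those below numbered 13 with odd-numbered cells, 3 to 10 with 1 Gran-1 cell left out, and 2 without Gran-2 cells of fewer than 4000 genes, an alternative added after seeing the data. Fewer cells leave more genes without overlap.

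The sign turned for Cd177 (-0.20) and Tbp (-0.069) by medians, Bad (1.01) with matched cells, Ldhb (-0.014) with even and Ets1 (-0.55) with odd-numbered cells, and, among lists with a median past 2-fold, the stem and multipotent progenitor list (0.21) with no filter. With 1 Gran-1 cell left out, differences ranged from -0.23 to 2.43 for Ets1, -2.39 to 0.16 for Hoxa9, -0.28 to 2.37 for Cybb, -2.24 to 0.082 for Ms4a6c and -2.71 to 0.087 for Tfrc. The cause was not tested. No paired analysis was possible because the cell numbers only name cells and the 2 states share none. With 4 Gran-1 cells, 1 cell can set a mean, and without read counts the part of depth in values at 0 was not tested.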

Other observations

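In CD11b+ GMP-P 14 of 18 glycolysis enzymes were assessed, and 2 were at least 2-fold higher (Pfkp 1.49 and Ldhb 1.46) and 1 lower (Pgk1 -1.25) in Gran-2. That stands beside 11.6% and 34.9% of all assessed genes, and the median was -0.22. Pfkp differed by 0.11 by medians. Ldhb differed by 0.79 without Gran-1 cell 79 or cell 85, and Pgk1 by -0.75 without cell 85. All 25 oxidative phosphorylation genes were assessed, 1 at least 2-fold higher (Cox5a 1.74, 0.34 without cell 79) and 9 lower, near the 34.9% of all assessed genes, with a median of -0.36 against -0.48 for all genes. The 9 were 1 by the log2 of the mean TPM and 3 with Gran-2 cells matched on genes detected. Of all assessed genes 964 and 1303 were lower under these 2 settings. The complex I subunit Ndufv1 (-3.37) and the complex II subunits Sdhb (-2.42) and Sdha (-2.28) were among the 9, of which Sdhb and Sdha differed by -0.57 and -0.79 by the log2 of the mean TPM. Of the BCL2 family, which governs apoptosis, 5 of 15 were assessed. The pro-apoptotic Bid (-4.46) and Bad (-1.77) were at least 2-fold lower, a count near the 34.9% of all assessed genes. Bad differed by -0.93 with a pseudocount of 10, -0.31 by the log2 of the mean TPM and 1.01 with matched cells. The list's median was -0.22 and turned sign under 6 alternatives. The survival gene Bcl2 was at 0 in all 24 cells. Of 19 interferon response genes 3 were assessed, all within 2-fold, with a median of -0.69, and 8 were at 0 in all cells. Of 12 housekeeping genes 10 lay within 2-fold, Tbp was higher (1.12, 0.76 without cell 82 or cell 95) and Sdha lower, and the median was -0.27.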
